A study of Mus musculus with 310 samples.

Results

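The cytosolic ribosome is built from a large and a small subunit, each made of ribosomal RNA and a set of ribosomal proteins. Their mRNAs are among the most abundant of a growing cell, and many begin with a cytosine followed by pyrimidines, the 5′ terminal oligopyrimidine (TOP) tract through which mTOR signalling sets their translation. In the epidermis, translation is known to be kept low in quiescent hair follicle stem cells and to rise as their progeny commit to differentiation. Described here are the genes whose symbols begin with Rpl or Rps and a digit, with Rpsa, Rplp0, Rplp1 and Rplp2 added and S6 kinases, the Rps19-binding protein and symbols of annotated pseudogenes taken out. This rule found 84 genes of 14068 in the table, 50 of the large and 34 of the small subunit, and the names fixed the members, not the measured values.

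The cells were tdTomato-positive single cells sorted from mouse tail epidermis and sequenced with a modified Smart-seq2 protocol. All mice, of a mixed CBA and C57BL/6 background, carried Lrig1-EGFP-ires-CreERT2 and Rosa26-fl/STOP/fl-tdTomato and had received topical hydroxytamoxifen, so the reporter marks cells that expressed Lrig1, a stem cell gene of the upper hair follicle, and their descendants of any type. The labels give 2 groups of the same time, 38 weeks: 38w, with the replicates RepI (70 cells) and RepL (75 cells), and 38wUW, with RepM (82 cells) and RepN (83 cells). The study labelled mice at an age of 6 to 8 weeks and wounded tails 1 week later or left them intact, but the labels do not spell out UW, so which group had been wounded is not stated and every difference is given as 38w against 38wUW. They do not say either whether the replicates are separate mice, and p-values then measure the spread between these 4 samples.

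RepI was spread over plates C114 (53 cells) and C118 (17 cells), while RepL was on C119, RepM on C128 and RepN on C129. Outside RepI the plate and the replicate therefore cannot be told apart. Both batch tags of the labels give C114 and C118 different values, so the labels do not settle whether RepI is a single sample. The values are estimated read counts with no molecular identifiers, from 11711 to 721564 reads a cell, summing to 5472070 to 12946742 reads a replicate. Summed over 8 basal keratinocyte genes the plates had 3293 to 28028 CPM, read counts scaled to a common library total, against 2.88 to 9.52 CPM for immune, 12.2 to 27.7 CPM for melanocyte, 4.07 to 75.3 CPM for fibroblast and 0.517 to 5.75 CPM for Merkel cell genes. Of the endothelial genes, Pecam1 was at 1168 to 8773 CPM and Kdr at most at 0.58 CPM, and Cdh5 and Emcn have no row. Cell names on C114 carry a suffix in 13 cases, and 11 of its wells are named by 2 cells each. In 2 cells of other plates the suffix is MBULK, and these may not be single cells.

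The TOP tract is the sequence feature for which this family is best known, so the bases around the annotated starts were read from RefSeq (GRCm38.p6) for 64 of the members. In each window of 30 bases, 15 on each side of the start, the longest run of pyrimidines is in capitals, and the start is the 16th base. The first 4 are members with a cytosine and at least 4 further pyrimidines at the start.
Rpl35 (chr2:39005117-39005146, minus strand): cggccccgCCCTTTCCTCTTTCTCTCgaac
Rpl15 (chr14:18270972-18271001, minus strand): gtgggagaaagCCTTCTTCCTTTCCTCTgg
Rps18 (chr17:33955651-33955680, minus strand): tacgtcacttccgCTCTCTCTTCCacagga
Rps27 (chr3:90213634-90213663, minus strand): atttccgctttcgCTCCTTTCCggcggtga

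The next windows belong to members whose levels behaved differently from one another below. Rplp0 and Rpl18 were far higher on plate C114 than on C118, while Rpl5, Rpl39 and Rpl22l1 were not higher on C114.
Rplp0 (chr5:115559452-115559481, plus strand): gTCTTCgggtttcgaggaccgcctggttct
Rpl18 (chr7:45718056-45718085, plus strand): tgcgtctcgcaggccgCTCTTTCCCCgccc
Rpl5 (chr5:107900513-107900542, plus strand): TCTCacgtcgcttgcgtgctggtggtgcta
Rpl39 (chrX:37085208-37085237, minus strand): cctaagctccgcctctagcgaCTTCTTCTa
Rpl22l1 (chr3:28805493-28805522, plus strand): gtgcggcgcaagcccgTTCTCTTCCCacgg

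A run of at least 8 C or T on the sense strand, which reads like the mRNA, lay in 38.7% of the 75 member windows. It lay in 12.003% of all 32851 windows. A cytosine exactly at the annotated start with at least 4 pyrimidines after it was found in 18.7% of member windows and 2.51% of all windows, these counts overlapping with the first. In the 15 windows of other translation genes with known TOP mRNAs the shares were 33.3% and 20%, and in those of ribosome biogenesis genes 2.78% and 0%. These are matches of letters at annotated starts, which can lie some bases from the start used in a cell. The median log2 ratio of C114 to C118, described below, was 2.79 for the 14 genes with the pyrimidine start and 2.96 for the 48 without. By the other definition, it was 3.18 for the 27 genes with a run of at least 8 and 2.49 for the 35 without, and neither difference was tested.

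The members were read in nearly every cell. A cell held reads of a median of 80 of the 84 members, from 50 to 83, and 70 members were found in over 90% of the cells of every plate. With each cell reduced to 20000 reads, which 277 cells reached, the median was 77 members, from 29 to 82, and 45 members passed 90% on every plate.

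On at least 1 plate, 5 members were found in fewer than 50% of the cells. Rpl39l, a copy of Rpl39 known from the testis, had 12 reads in all, in 2.26% of cells. Rps23rg1, a copy of Rps23, had reads in 9.03% of cells. Rpl7l1, a paralog of Rpl7, was found in 71.7% of C114 cells and in 32.0% to 48.2% of the cells of the other plates. Rpl10, whose protein joins the large subunit late and completes it, was found in 98.1% of C114 cells but in 40% on C119, and the share of its sequence held by other genes is given further below. Rps27rt, a copy of Rps27, was found in 46.7% of C119 cells and in 82.4% of C118 cells.

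The summed level of the members set 1 plate apart. As a share of a cell's reads outside the mitochondrial genes, ribosomal protein reads had a median of 33.5% on C114, ranging from 2.83% to 46.4%. On C118, which carries the same replicate tag RepI, the median was 10.03% and the range 4.90% to 17.6%. The other plates were lower still, with medians of 4.11% (0.477% to 13.1%) on C119, 6.56% (0.699% to 18.5%) on C128 and 6.18% (0.66% to 25.3%) on C129. Of the 53 cells of C114, 41 lay above the highest of the 257 other cells. The C114 cells were themselves not uniform: 5 lay between 2.83% and 7.25%, and the next was at 15.4%. Thinning every cell to 20000 reads left the plate medians at 33.3%, 10.2%, 3.91%, 6.59% and 6.17% in the same order.

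**Figure D1:**
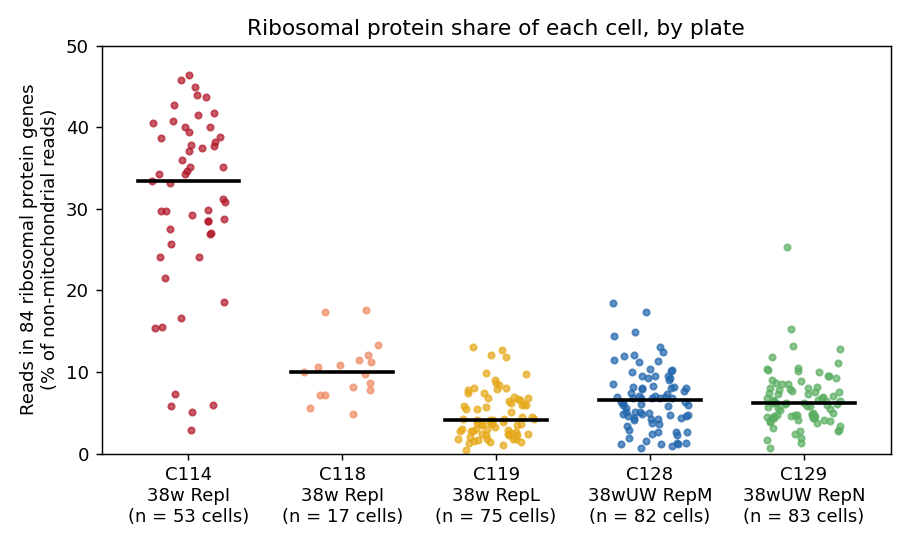
Reads in the 84 ribosomal protein genes as a percentage of each cell's non-mitochondrial reads (y axis) on the 5 plates (x axis), with 1 point a cell and a bar at the plate's median. The median is 33.5% on C114 and between 4.11% and 10.03% on the other plates, and 41 of the 53 C114 cells are above every other cell.

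The other measures of the cells moved with the plate as well. Mitochondrial genes took a median of 2.77% of the reads on C114, 33.8% on C118, 9.69% on C119, 14.6% on C128 and 18.3% on C129. Summed over the 8 basal genes, C114 had 28028 CPM against 3293 to 8642 CPM elsewhere, led by the basal keratin Krt14, at 23571 CPM on C114 and 825 to 4626 CPM on the other plates. The list was not of 1 direction: Trp63 was at 78.9 CPM on C114 and 279 to 591 CPM elsewhere, and Itga6 at 70.3 CPM and 171 to 362 CPM, both lowest on C114, and Dst was within the range of the other plates. Summed over 10 genes of keratinocyte differentiation, C114 was highest as well, at 19200 CPM against 4369 to 15661 CPM elsewhere. The median log2 ratio of C114 to the mean of the other plates was 0.98 over the basal genes. It was 1.51 over 9 differentiated and 2.25 over 6 infundibular genes, and -1.34 over 7 sebocyte and -1.29 over 8 bulge genes. The part of cell make-up or of library quality in the ribosomal protein levels was not tested.

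Between the groups, the share was 28.6% in RepI and 4.11% in RepL of 38w, and 6.56% in RepM and 6.18% in RepN of 38wUW, each the median over cells. RepI lay above and RepL below both replicates of 38wUW, so the groups overlapped. The means were 16.4% ± 17.3 (SD, n = 2) in 38w and 6.37% ± 0.268 (SD, n = 2) in 38wUW, a difference of 10.01 percentage points (exact two-sided permutation test, p = 1; the smallest p that 2 against 2 allows is 0.3333). Without RepI the difference was -2.26 points, and with RepI taken from C118 alone it was 0.702 points.

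Reads of the large subunit outnumbered those of the small subunit, and the median ratio over cells was 1.52 for RepI and 1.72 for RepL, beside 1.76 for RepM and 1.94 for RepN. Both 38w replicates were therefore below both of 38wUW, at 1.62 ± 0.14 against 1.85 ± 0.132 (SD, n = 2 each; exact two-sided permutation p = 0.3333, the smallest possible). Within RepI the plates were on opposite sides, with medians of 1.46 on C114 and 2.21 on C118. The difference between groups changed sign with C118 alone, to 0.116.

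Gene by gene, edgeR's quasi-likelihood test on the reads summed per replicate was run on the 11760 genes that passed its filter on low counts, 83 members among them. Benjamini-Hochberg adjusted p-values passed 0.05 for 0 members, and for 0% of all genes tested. DESeq2 called 0 of 84 members, beside 81 of 14067 genes. At an unadjusted p under 0.05 there were 27 members with edgeR, beside 8.07% of all genes tested, and 53 with DESeq2, beside 11.7%. The fitted log2 fold change of 38w over 38wUW was above 0 for 81 of the 83 members, beside 6276 of the 11760 genes tested. Its median over members was 2.21 and its range -0.52 to 3.69, beside a median of 0.12 over all genes. The median for the large subunit was 2.22 and for the small subunit 2.11, and the median SE of a member was 1.16.

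This direction rested on RepI. That replicate had the highest of the 4 levels for 79 of the 84 members, whereas RepL was above RepM for 17 members and above RepN for 38. The shares of all genes with these orders were not computed. Both 38w replicates exceeded both 38wUW replicates for 10 of the 83 members, beside 12.6% of all genes tested, and both were lower for 1 member beside 26.2% of all genes. Without RepI, the median member was at 0.065, 42 of 82 were above 0 and 0 were called, beside 1.38% of all genes. With RepI and without RepL, 71 of 83 members passed the threshold as higher, beside 6.35% of all genes called higher, and the median was 3.14. In that fit the lone 38w replicate is assumed to vary like those of 38wUW.

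Rplp0, Rplp1 and Rplp2 form the ribosomal stalk, a flexible arm that recruits translation factors. Rplp0 was at 10712 CPM in RepI and 1124 CPM in RepL, and at 920 CPM in RepM and 405 CPM in RepN. The fitted fold change of Rplp0 was 3.42 on the log2 scale, with an SE of 1.42 and an adjusted p of 0.617 from edgeR. Rplp1 was at 4915 and 493 CPM in RepI and RepL and at 474 and 349 CPM in RepM and RepN. For both genes the groups did not overlap, although RepL exceeded RepM only narrowly, and for Rplp2 (2025, 209, 232 and 175 CPM in the same order) RepL lay between the 38wUW replicates.

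Proteins with known roles beyond the ribosome followed the same order of replicates in part. Rpsa, which is also described as a laminin receptor, was at 6575 CPM in RepI, 909 CPM in RepL, 906 CPM in RepM and 579 CPM in RepN. Rps6, the substrate of the S6 kinases downstream of mTOR, was at 1799, 416, 401 and 458 CPM. Rps3, at the site where mRNA enters the ribosome, was at 3054, 434, 444 and 253 CPM. In each of these RepI was several times higher than each of the other replicates. The same held for Rpl38, known for its part in Hox mRNA translation, at 650, 68.8, 97.8 and 63.7 CPM, and for Rpl41, which encodes a very short peptide, at 4360, 317, 483 and 207 CPM.

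Rpl5 and Rpl11, which bind the 5S ribosomal RNA together and can hold back Mdm2 to stabilise p53, had different orders of levels. Rpl11 was at 2455 CPM in RepI, 273 CPM in RepL, 315 CPM in RepM and 219.7 CPM in RepN, 2.61 higher in 38w on the log2 scale with an SE of 1.18 (edgeR, adjusted p = 0.617). Rpl5 was at 10437, 4508, 5528 and 11176 CPM, 0.10 on the same scale with an SE of 1.31 (edgeR, adjusted p = 0.99). The highest level of Rpl5 was thus in RepN of 38wUW and the lowest in RepL of 38w. Rps27a, which is made as a fusion with ubiquitin, was between these at 5341, 964, 1089 and 2254 CPM.

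At the ends of the list, Rpl18 had the highest fold change, 3.69 with an SE of 1.28 (edgeR, adjusted p = 0.617), from 2192 CPM in RepI, 168 CPM in RepL, 160 CPM in RepM and 59.2 CPM in RepN. Rpl36 at 3.66, Rplp0 and Rps18 at 3.22 were also among the highest. The lowest was Rpl22l1 at -0.52 with an SE of 0.89 (edgeR, adjusted p = 0.883), with 245 and 321 CPM in 38w and 363 and 599 CPM in 38wUW. Rpl22l1 was the one member with both 38w replicates below both 38wUW replicates. Rpl39 at -0.11, Rpl5, Rpl30 at 0.21 and Rps27l at 0.49 came next.

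**Figure D2:**
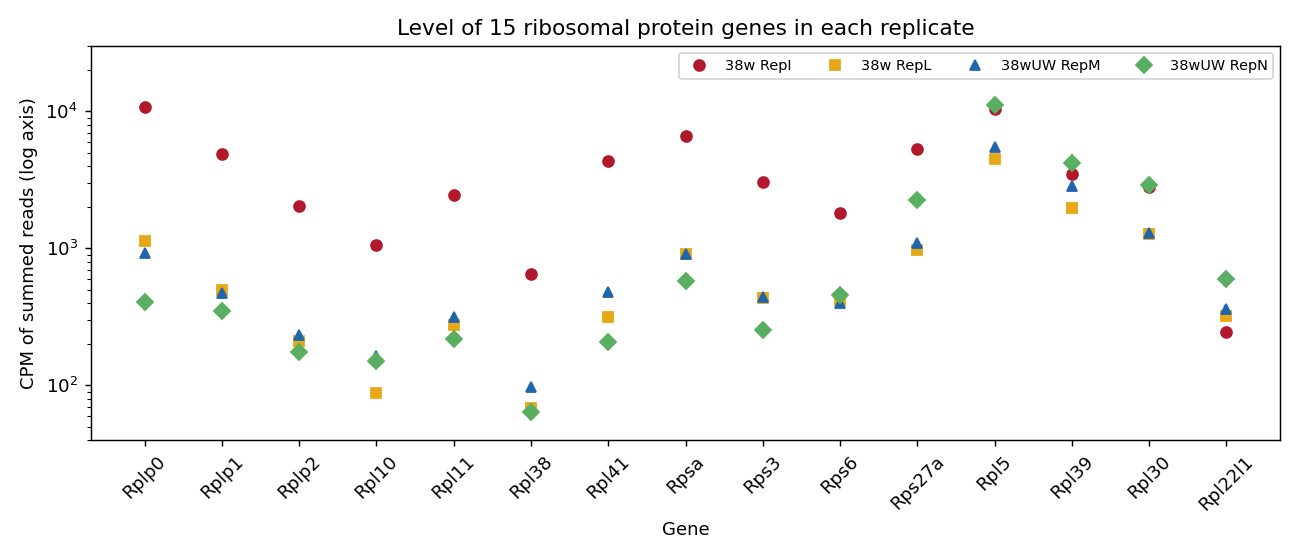
CPM of the summed reads (y axis, log scale) of 15 ribosomal protein genes (x axis) in the 4 replicates, 1 symbol each and no error bars. RepI is highest for the first 11 genes, from 10712 CPM for Rplp0 to 650 CPM for Rpl38, while for Rpl5, Rpl39, Rpl30 and Rpl22l1 RepN is highest.

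The plates of RepI show the same split inside 1 replicate tag, although both batch tags separate them. Levels were therefore set side by side for C114 and C118, which have no replicates of their own and were not tested. Of the 82 members with at least 100 reads in the table, 70 were over 2-fold higher on C114 than on C118, on a scale of CPM with 1 added, beside 35.4% of all genes with that many reads. For 41 members the ratio was over 8-fold, a cutoff at which all genes were not counted. The median log2 ratio was 2.96 over members and 0.01 over other genes.

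The largest ratio was that of Rpl36, at 2445 CPM on C114, 61.1 on C118, 144 on C119, 148 on C128 and 58.1 on C129. Rpl18 (2647 CPM on C114 and 59.2 to 168 CPM elsewhere), Rps15 (2801 and 88.8 to 246 CPM) and Rplp0 (12906 and 405 to 1124 CPM) came next. C114 had the highest level for each of these 4 genes, which were chosen for their large ratios of C114 to C118 and to the other plates. C114 was the highest plate for 79 of the 84 members, and the share of all genes with C114 highest was not computed.

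The 4 members that follow were not higher on C114 than on C118. Rpl22l1 was at 189 CPM on C114 and 321 to 599 CPM on the other plates, which made C114 its lowest plate. Rpl39 was at 3074 CPM on C114 and 1980 to 5393 CPM elsewhere. Rpl5 was at 9848 CPM on C114, 13176 on C118, 4508 on C119, 5528 on C128 and 11176 on C129. Rpl30 was at 2782 CPM on C114, 2802 on C118 and 1273 to 2898 CPM on the remaining plates. Each of Rpl39, Rpl5 and Rpl30 was within the range of the other plates on C114.

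The leading member therefore changed with the plate. Rplp0 took 4.47% of the ribosomal protein reads of C114, followed by Rpl21 with 4.26%. On the other plates Rpl5 led, with 19.5% on C118, 11.02% on C119, 11.7% on C128 and 18.8% on C129, and Rpl39 was second with 4.84% to 7.98%. The 5 leading genes held 18.8% of the member reads on C114, 26.1% and 28.1% on C119 and C128, and 40.98% and 39.99% on C118 and C129. Per kilobase of transcript and averaged over plates, Rpl39 (5714 CPM per kb) and Rpl5 (4326) were among the highest members and Rpl22 (130.1), Rpl7l1 (16.8) and Rpl39l (0.496) the lowest, on a median of 1233 CPM per kb over the 83 members with an annotated length.

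**Figure D3:**
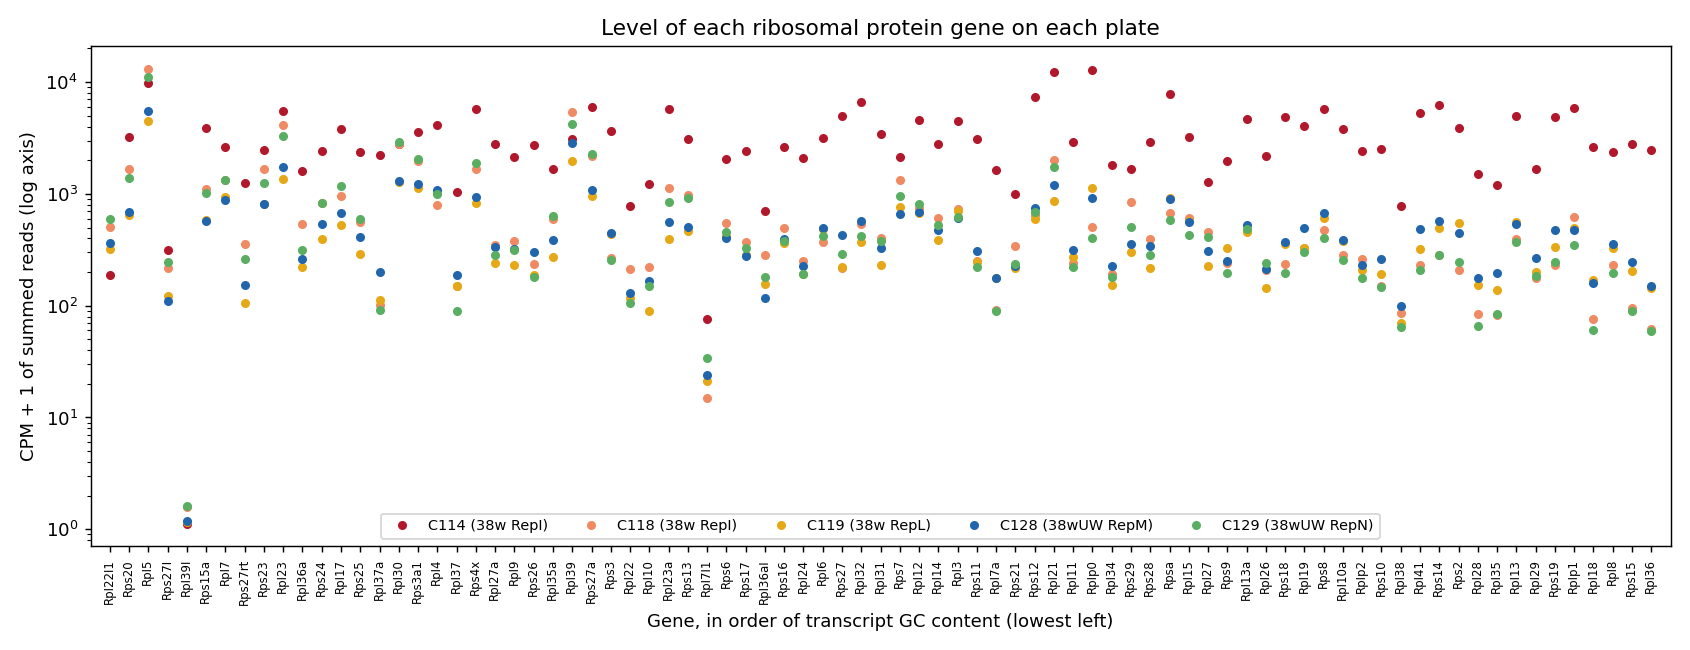
CPM of summed reads with 1 added (y axis, log scale) of 81 members (x axis, ordered by transcript GC content), 1 point for each of the 5 plates. C114 is above the other plates for most genes and the gap is widest at the right, while at the left Rpl22l1 and Rpl5 are not raised on C114.

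In the make-up of their ribosomal protein reads the plates fell into pairs that the groups do not share. Across 83 members, the share of member reads on C118 (38w, RepI) and on C129 (38wUW, RepN) had a Spearman correlation of 0.967, and the log2 ratio of the shares had an SD of 0.322. C119 (38w, RepL) and C128 (38wUW, RepM) had a correlation of 0.968 and an SD of 0.286. Across these pairs the correlations were 0.841 to 0.886 and the SDs 0.759 to 0.798. C114 had 0.486 with C118 and 0.521 with C129, but 0.739 with C119 and 0.782 with C128. These correlations are across genes, which are not independent, and share the levels that all plates have in common. Neither batch tag of the labels forms these pairs: C118, C119 and C129 share one value of the first tag, and C118, C119 and C128 one of the second.

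**Figure D4:**
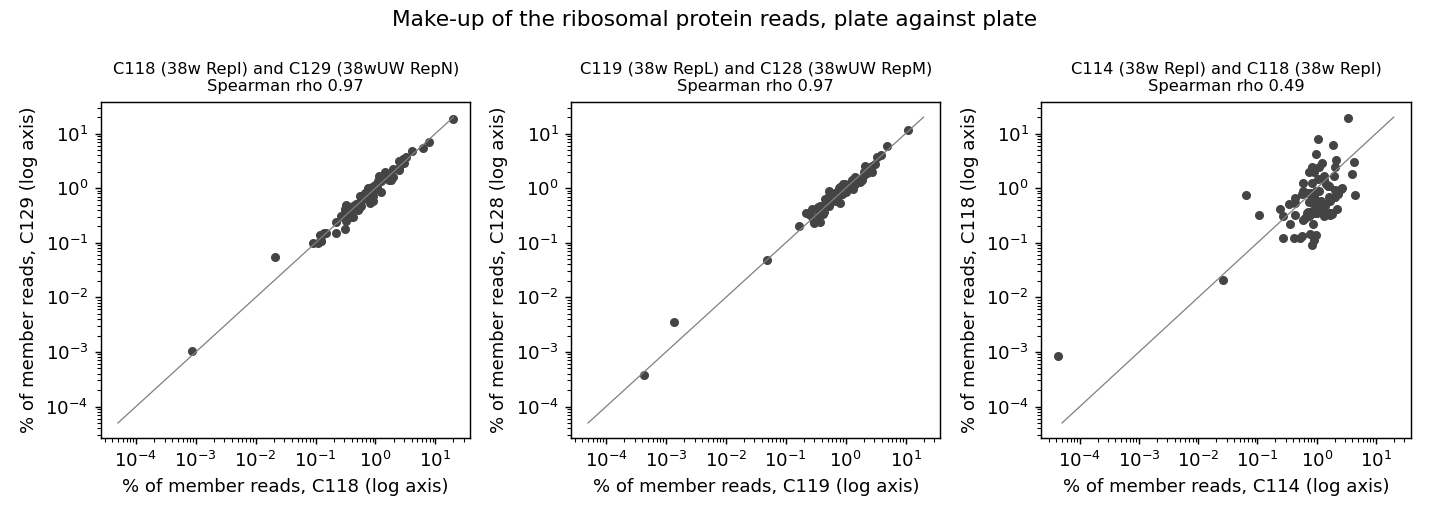
Percentage of a plate's ribosomal protein reads held by each member (log axes), C129 against C118, C128 against C119 and C118 against C114, with 1 point a gene and a line of equality. The points follow the line in the first 2 panels (Spearman 0.967 and 0.968) and scatter around it in the last (0.486).

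The differences between plates moved with base composition. Transcripts of the members had a GC content of 39.8% to 60.8% (median 51.5%) and a median length of 757 nucleotides, against 49.6% and 2778 nucleotides for other genes with at least 100 reads. Across 82 members, the log2 ratio of C114 to C118 had a Spearman correlation of 0.726 with GC content. For the 4 members with at most 45% GC the median ratio was 0.053, for 28 between 45% and 50% it was 1.84, for 34 up to 55% it was 3.15 and for 16 above 55% it was 4.19. Genes that are no members moved in the same way but lower, with medians of -1.70, -0.57, 0.81 and 2.22 in these bins, and those shorter than 1000 nucleotides were at -0.93, 0.40, 1.89 and 3.29.

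The plate pairs also differed along GC content, with GC-rich members lower on C118 than on C119 and lower on C129 than on C128. C118 against C119 had a correlation of -0.692 with GC content over the members and C129 against C128 one of -0.745, against -0.196 and -0.246 over other genes. In these comparisons 17 and 6 of the 82 members were over 2-fold higher, beside 19.1% and 17.2% of all genes. The median log2 ratio of members over 55% GC was -0.55 for C118 to C119 and -0.98 for C129 to C128, and that of members between 45% and 50% was 0.94 and 0.58.

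**Figure D5:**
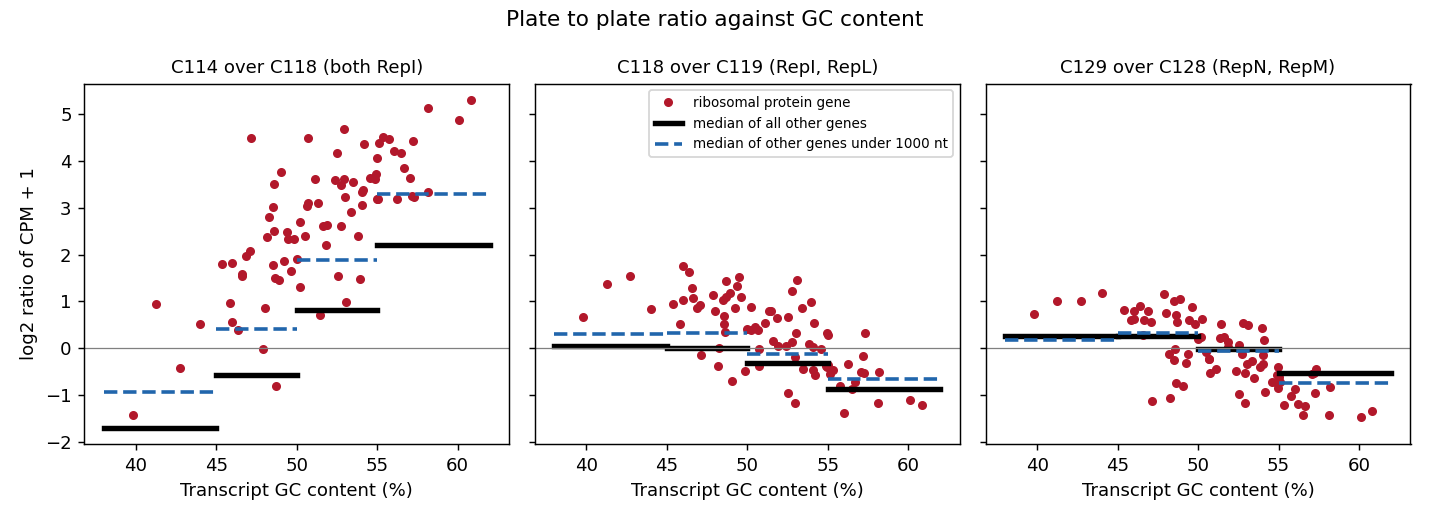
Log2 ratio of CPM with 1 added between plates (y axis) against transcript GC content (x axis) for 82 members (points), with the medians of other genes (solid) and of other genes under 1000 nucleotides (dashed) in bins of GC content that end at 45%, 50% and 55%. The points rise with GC content for C114 over C118 (Spearman 0.726) and fall for C118 over C119 (-0.692) and C129 over C128 (-0.745).

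After a smooth trend of the ratio with GC content and length, fitted over 10302 genes, was subtracted, the median member was at 1.26 for C114 to C118 and 75 of the 82 members were above 0. Rpl37a (3.72), Rplp0 (3.23), Rps15a (3.23) and Rps3 (3.0003) were then the highest and Rpl39 (-1.89) and Rps29 (-1.67) the lowest. The spread among members remained, with an interquartile range of 1.21 after the trend against 1.82 before it. In the comparison of the groups, an offset for GC content and length lowered the median log2 fold change from 2.21 to 0.995. Above 0 were 77 of 82 members, beside 6392 of 11505 genes, and edgeR called 0 members. An unadjusted edgeR p under 0.05 was found for 4 of the 82 members, beside 674 of the 11505 genes. The offset was chosen after the data had been seen.

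In single cells, reads of the 50 members over 50% GC were set against those of the 33 at or below it. The median ratio was 2.32 on C114, 1.37 on C119 and 1.18 on C128. On C118 and C129 it was 0.441 and 0.435, so there the GC-rich members had fewer reads. The mean transcript GC content behind the other nuclear reads of a cell was 51.6% on C114 and between 46.3% and 48.0% on the others, as plate medians, and the lowest C114 cell, at 48.1%, was above each of those medians. Within a plate, this mean and the ribosomal protein share had Spearman correlations of -0.05 to 0.25 over its cells, and those of the ratio of GC-rich to GC-poor member reads with that share ran from -0.30 on C118 to 0.33 on C119. The 5 C114 cells with the lowest ribosomal protein shares (2.83% to 7.25%) had values of 50.2% to 53.1%, inside the range of their plate.

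Paralogs showed how close relatives shifted, with the caution that paralog and parent differ in GC content. Rpl22l1 and Rpl22 can take the same place in the large subunit, and Rpl22 is known to hold down Rpl22l1. Rpl22l1 (39.8% GC) made up 19.7% of the reads of this pair on C114 and 70.7%, 73.5%, 73.6% and 85.1% on C118, C119, C128 and C129, as Rpl22 (49.2% GC) was at 770 CPM on C114 and 105 to 211 CPM elsewhere. Rps27l, a p53 target, made up 5.95% of its pair with Rps27 on C114 and 20.5% to 49.9% on the other plates. Rps27rt made up 20.3% of its pair with Rps27 on C114 and 26.2% to 62.1% elsewhere, with most of its sequence shared. The autosomal Rpl36al was at 30.5% to 41.1% of its pair with the X-linked Rpl36a. Rpl7l1 ran from 1.04% of its pair with Rpl7 on C118 to 2.77% on C114.

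Reads cannot always be placed in this family, which has many processed copies in the genome. Of 83 members, 22 shared over 50% of their 75-base stretches, the read length, with transcripts of other genes, and 3 shared none. Rps27rt shared 90.3% with Rps27, Rpl36a 84.6% and Rpl3 83.2% with several genes, Rps6 84.1% with Rps6-ps4 and Rpl10 79.0% with Rpl10-ps3. Rps27rt was at 1255 CPM on C114 although 54.7% of its cells had a read, and most of its reads could come from Rps27. The 28 table genes that are pseudogene symbols of the family or share such stretches held 1.59% as many reads as the members, led by Gm2000, which shared 32.9% of the stretches of Rpl35 and had 1366 CPM on C114 beside 1194 CPM for Rpl35. Rpl10-ps3 had 789 CPM there beside 1237 CPM for Rpl10, and Rpl9-ps6 565 CPM beside 2116 CPM for Rpl9. Levels of the 22 members and of Rpl35 and Rpl9 are therefore uncertain. Members under the cutoff are not free of this, as Rpl13a shared 48.5% and Rpl5 and Rps27a 47.9% each. The median over the 83 members was 30.7%.

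On the same plate the members rose and fell together from cell to cell. Over the 3081 pairs of 79 members found in at least 50% of the cells of every plate, the median Spearman correlation of their shares of nuclear reads was 0.475 on C114 (53 cells), 0.301 on C118 (17 cells), 0.576 on C119 (75 cells), 0.624 on C128 (82 cells) and 0.401 on C129 (83 cells). Pairs with a positive value made up 85.7% to 99.8%. Among 1065 other genes found in at least 50% of the cells of every plate, those whose share of the remaining reads went most with the ribosomal protein share included Rack1 (mean rho over plates 0.708), Eef1a1 (0.653), Eef1b2 (0.62), Btf3 (0.611), Npm1 (0.566), Ppia (0.538), Naca (0.535), Fau (0.523) and Tpt1 (0.52). The median over the 1065 genes was 0.0496. At the other end were Lasp1 (-0.35), Tmcc1 (-0.334), Alg13 (-0.324), Prrc1 (-0.317) and Gabra2 (-0.316). The points are cells of 1 plate that share its preparation, and the values are descriptions.

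Several of these genes are ribosomal proteins under another symbol or elongation factors. Rack1 sits on the small subunit, Fau encodes a ribosomal protein fused to a ubiquitin-like protein, and Eef1a1 and Eef1b2 deliver aminoacyl-tRNA or recharge the factor that does. The relation of the ribosomal protein share to a cell's total reads was weak on every plate, with Spearman values of 0.02 to 0.27. Its relation to the summed basal genes ranged from -0.13 on C118 to 0.46 on C119, and to the summed infundibular genes from -0.48 on C114 to 0.04 on C118. The basal and infundibular relations differed in sign or size between plates. For the sebocyte genes the values were 0.10 to 0.38, for the differentiated genes -0.18 to 0.05 and for the bulge genes -0.45 to 0.25. For 31 short nuclear genes of oxidative phosphorylation they were 0.48 to 0.70. For 20 other translation genes with known TOP mRNAs they were 0.65 to 0.84, and for 23 other translation factors 0.24 to 0.53.

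In the other lists of the translation machinery, edgeR called 0 genes between the groups. Fau had a log2 fold change of 2.58 and was at 2521 CPM in RepI and 145 to 406 CPM in the other replicates. Rack1 had a log2 fold change of 2.39 and was at 2183 CPM in RepI and 257 to 380 CPM in the others. The 20 other translation genes with known TOP mRNAs had a median of 0.68 (2 of 20 at an unadjusted p under 0.05, beside the 8.07% of all genes), and among them Tpt1, at 3899, 4061, 3864 and 7518 CPM in RepI, RepL, RepM and RepN, was not raised in RepI, while Eef1a1 was at 7085, 4154, 3752 and 3528 CPM. The 23 other translation factors had a median of 0.19 (3 of 23), 34 ribosome biogenesis genes 0.67 (3 of 34), among them Ncl at 628, 639, 558 and 1205 CPM, and 14 regulators of ribosomal protein mRNAs or of Rps6, such as mTOR and Myc, 0.48 (0 of 14).

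Among short nuclear transcripts of other functions, 31 genes of oxidative phosphorylation had a median of 1.42 (8 of 31 at an unadjusted p under 0.05, again beside 8.07% of all genes), with Cox4i1, a subunit of cytochrome oxidase, at 1479 CPM in RepI and 78.3 to 163 CPM in the others. The 78 mitochondrial ribosomal proteins, which build the separate ribosome of that organelle, had a median of 1.13 (16 of 78). Without RepI these medians were -0.02 and 0.16, beside 0.065 for the cytosolic members and -0.15 for all genes.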

How the data were processed

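Estimated counts for 14068 genes in 310 cells make up the deposited table. Per the labels and the study's methods, the authors made them with Salmon 0.13.1 against the Ensembl release 101 mouse transcriptome (mm10) from oligo-dT primed, full-length, single-end reads of 75 bases, and the values are not scaled (3.60% are not whole). PCR without molecular identifiers means that a read is not an independent molecule. Longer transcripts yield more reads, so levels between genes are given per kilobase. Sample groups came from the labels, and 0 columns belonged to no listed sample.

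Counts were summed per replicate (5472070 to 12946742 reads), rounded and passed to the quasi-likelihood F-test of edgeR 4.0.16 under R 4.3.3, after filterByExpr and TMM scaling, with p-values adjusted over all genes by Benjamini-Hochberg and a threshold of 0.05. The SE is the fold change divided by the square root of F. DESeq2 1.42.0 was an alternative. Single values were compared by exact permutation in scipy 1.17.1. Plate ratios used CPM with 1 added for genes with at least 100 reads. Length, GC content and 75-base sharing came from GENCODE M21 transcripts of GRCm38, not the authors' release, as medians over basic protein-coding transcripts; the trend with both used natural splines of 4 degrees of freedom. Cells were not filtered further and doublets were not called. The members, lists and tests were chosen with earlier results of these data known. Named genes were those chosen for their role, paralogs and their parents, the 5 highest and 5 lowest fold changes among members whose average log2 CPM reached 4, the 3 highest and lowest levels per kilobase, the 4 largest and smallest ratios of C114 to C118 or to the other plates, members found in under 50% of the cells of a plate, and the highest genes of the other lists, all by a written rule, of which some are not reported here; Rpl9, Rpl21, Rpl35, Rpl37a, Rps15a, Rps29, the copies that share reads and the cell type genes were named after their values were seen.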

Additional observations from a re-analysis of the deposited data

How the results depend on the processing

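With 2 replicates a group and 4 samples in all, fold changes had a median SE of 1.16 on the log2 scale, and no permutation p could be under 0.3333. The median log2 fold change of the members, 2.21, was 0.24 with RepI from C118 only, and leaving out each replicate in turn gave 0.065 to 3.14. The number of members called was 0, and 0 to 71 on leaving out each replicate, with 71 only without RepL. No other alternative called a member, including another scaling, no filter on low counts, DESeq2, thinned cells, the suffix or MBULK cells left out, plates as units and either batch tag as a replicate block. With the first or the second tag as a replicate block on 4 plates, 0 members were called and the median was 1.73. For all genes the count was 0 with the main test, 81 with DESeq2, 1 with no filter, 13 and 1 under the blocks, and 1215 without RepL or 169 without RepI. The difference in ribosomal protein share, 10.01 points, was -2.26 to 22.3 points on leaving out each replicate. The difference in the ratio of large to small subunit reads, -0.227, was 0.116 with RepI from C118 only and -0.326 to -0.128 on leaving out each replicate.

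Of 570 values of 32 single genes under the alternatives, 521 kept their direction and side of the threshold, 25 turned and 24 passed the threshold, all 24 without RepL. With RepI from C118 only, Rpl22l1 was at 0.051, Rpl39 at 0.34, Rpl41 at -0.095, Rpl7l1 at -0.45 and Rps27 at -0.46. Rpl39 was at 0.17 with equal weight per cell, 0.13 with thinned cells and 0.30 with plates as units, and Rpl30 at -0.25 with the offset for GC content and length. Leaving out each replicate in turn gave -0.61 to 3.08 for Rpl10, -0.49 to 0.88 for Rpl30, -0.14 to 2.65 for Rpl36a, -0.00034 to 3.35 for Rpl38, -0.60 to 0.33 for Rpl39, -0.66 to 0.67 for Rpl5, -0.0027 to 1.46 for Rpl7, -0.24 to 1.54 for Rpl7l1, -0.48 to 3.86 for Rps27, -0.56 to 2.02 for Rps27a, -0.32 to 1.17 for Rps27l, -0.74 to 2.75 for Rps27rt and -0.55 to 2.18 for Rps4x. The causes were not tested.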

Other observations

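On C114, 11 wells are named by 2 cells, with and without the suffix IDTILL. In well F3 the ribosomal protein share of nuclear reads was 2.83% in the cell without and 40.5% in the cell with the suffix, and in G5 it was 5.93% and 29.7%. In E2 the order was the other way, at 43.7% and 18.5%, and in E3 both cells were low, at 5.78% and 5.06%. The difference within a well had a median of 13.3 points, against 10.2 points for 509 pairs from different wells. Over 5329 genes that are neither ribosomal protein nor mitochondrial genes, the 2 cells of a well had a median Pearson correlation of log2 CPM of 0.39 (0.229 to 0.506), against 0.267 (0.139 to 0.433) for pairs of different wells. The 13 cells with the suffix had a median share of 34.3% and the 40 without it 33.3%, while their median reads were 41229 and 163820.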
